A study of Mus musculus with 2 samples.

Results

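The 4 genes described here encode the classical mouse MHC class II chains H2-Aa (alpha chain of I-A), H2-Ab1 (beta chain of I-A) and H2-Eb1 (beta chain of I-E), and Cd74, the invariant chain. They were chosen by name from 14789 gene symbols, with earlier results of these data known, and all 4 were measured. The data were counts of unique molecular identifiers (UMIs) from single pancreas cells of adult Tff2CreERT2; R26-tdTomato mice that had received tamoxifen. In these animals an inducible Cre recombinase is driven by Tff2 and switches on the red reporter, so both alleles and the drug are shared by every cell, and no uninduced or other genotype was compared. The sort kept live cells positive for EpCAM and RFP and negative for CD45 and TER119. The labels name 2 biological replicates of this single group but do not tie the 728 cells to them, so the values come from 1 pooled sample, have no replicate check and carry no p-value.

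MHC class II molecules are pairs of an alpha and a beta chain that carry peptides from the endosomes to the cell surface and show them to CD4+ T cells. The invariant chain binds new pairs in the endoplasmic reticulum, blocks their groove and guides them to the endosomes, where cathepsins cut it down to a remnant. H2-DM then exchanges the remnant for a peptide, and H2-O restrains H2-DM in B cells. B cells, macrophages and dendritic cells express these genes constitutively through the coactivator CIITA, and interferon gamma can induce them in endothelial and epithelial cells.

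In the GENCODE M21 annotation (GRCm38), the 3 chain genes lie within 58986 bases on chromosome 17. H2-Ab1 spans 34257689 to 34269419 on the plus strand, H2-Aa 34282744 to 34287823 on the minus strand and H2-Eb1 34305867 to 34316674 on the plus strand. All 3 are annotated as protein-coding. Known class II promoters share an X box, bound by the RFX complex, and a Y box with an inverted CCAAT sequence, bound by NF-Y, and the RefSeq windows (GRCm38.p6, 250 bases before to 50 after the start) of H2-Aa and H2-Eb1 are shown because the core letters of both elements occur in them. Of the 4 genes, these 2 matched the RefSeq table. Capitals mark GCAAC, a core of the X box, and ATTGG, the core of the Y box.
H2-Aa, chr17:34287774-34288073, minus strand: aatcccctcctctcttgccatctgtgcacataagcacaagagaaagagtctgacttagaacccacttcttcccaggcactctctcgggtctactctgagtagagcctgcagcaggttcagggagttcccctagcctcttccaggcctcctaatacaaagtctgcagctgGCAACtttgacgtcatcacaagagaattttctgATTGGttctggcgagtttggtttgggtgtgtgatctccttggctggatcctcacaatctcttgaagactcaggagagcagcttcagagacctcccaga
H2-Eb1, chr17:34305617-34305916, plus strand: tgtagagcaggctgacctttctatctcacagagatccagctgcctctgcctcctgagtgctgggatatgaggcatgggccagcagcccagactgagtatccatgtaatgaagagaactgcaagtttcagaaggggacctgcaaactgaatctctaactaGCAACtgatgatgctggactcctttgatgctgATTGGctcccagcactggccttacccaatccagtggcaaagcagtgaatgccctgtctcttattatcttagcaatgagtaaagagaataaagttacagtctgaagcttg

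In H2-Aa the GCAAC begins 81 bases and the ATTGG 48 bases before the start, with 28 bases between them. In H2-Eb1 the distances are 91 and 59 bases, with 27 bases between. A GCAAC followed on the gene's strand by an ATTGG after 10 to 40 bases occurs in 230 of 32851 promoter windows (0.700%), and in 5 of the 9 windows found for 8 chain and accessory chain genes (H2-DMa has 2), those of H2-Aa, H2-Eb1, H2-Eb2, H2-Oa and H2-Ob. GCAAC was chosen after the H2-Aa window had been seen. With the X core written as AGCAAC or AGAGAC the pair occurs in 190 windows (0.578%), and in 4 of the 9, without H2-Aa. Taken alone on either strand, ATTGG occurs in 37.4% of all windows, AGCAAC in 14.8%, AGAGAC in 20.1% and GCAAC, which AGCAAC contains, in 35.2%.

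Cells were put into classes by marker UMIs. B-like cells had 2 or more UMIs of Cd79a, Cd79b and Ms4a1, macrophage-like cells 3 or more of C1qa, C1qb and C1qc, T-like cells 2 or more of Cd3e, Cd3d and Cd3g, endothelial-like cells 5 or more of Kdr, Cdh5, Pecam1 and Egfl7, ductal-like cells 2 or more of Krt19 and Epcam, and acinar-like cells 10% or more of their UMIs from Ctrb1, Try4, Cela1 and Prss2. Exactly 1 rule was met by 642 cells, comprising 21 macrophage-like, 101 B-like, 32 ductal-like, 159 endothelial-like, 68 T-like and 261 acinar-like cells. Another 11 cells met several rules, 6 of them the ductal and acinar rules, and 75 met none. All 39 genes of 6 further marker lists, such as Cd22, Pax5 and Ighd for B cells and Adgre1, Csf1r and Mrc1 for macrophages, were highest in their own class. These lists share no gene with the rules but were chosen with earlier results of these data known. The B-like, macrophage-like and T-like cells were present although the sort had excluded CD45-positive cells, and the endothelial-like cells although it had required EpCAM, an epithelial surface protein. At the edge of the B rule, 4 cells had exactly 2 UMIs of its genes and 14 had 1 UMI, and the 14 held 241 class II UMIs. Of these 241, 185 lay in 1 cell and 14 in another, both in no class and described below. The edge of the ductal rule was the fullest, with 11 cells at exactly 2 UMIs, which held 6 class II UMIs, and 26 cells at 1 UMI, some of them in other classes, which held 41. For the other 4 rules, 2 to 8 cells lay just inside and 0 to 7 just outside.

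Depth was 2353008 UMIs over all cells (1004 to 53222 per cell), of which 50450 lay in the macrophage-like, 199291 in the B-like, 125025 in the ductal-like, 374144 in the endothelial-like, 179564 in the T-like and 1101550 in the acinar-like cells. Barcodes ended in 1 (667 cells) or 2 (61 cells), and 45 of the 61 were acinar-like. The 7 barcode sequences that stood under both endings covered 14 cells, of which 13 were acinar-like. Levels below are CPM, counts of a gene scaled to a class total of 1000000 UMIs. Intervals are exact 95% intervals (Poisson for levels, binomial for shares and ratios) and cover counting error only.

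Class II transcripts were concentrated in B-like cells, macrophage-like cells and a few cells that met no rule. Of 9664 UMIs of the 4 genes, 66.8% lay in the B-like cells, 16.3% in the macrophage-like cells and 14.6% in 10 cells that met no rule. These 10 were picked for 10 or more class II UMIs after the values were seen, so their high content follows from the choice. Endothelial-like and acinar-like cells held 0.766% each, ductal-like cells 0.114% and T-like cells 0.0828%. All 21 macrophage-like cells (83.9 to 100%) and all 101 B-like cells (96.4 to 100%) had at least 1 class II UMI, at median depths of 2284 and 1622 UMIs. In acinar-like cells, which should lack these genes, the share was 22.2% (17.3 to 27.8) at a median depth of 2117 UMIs. After thinning each cell to 1000 UMIs they were 99.5% in macrophage-like, 100% in B-like and 9.48% in acinar-like cells.

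**Figure D1:**
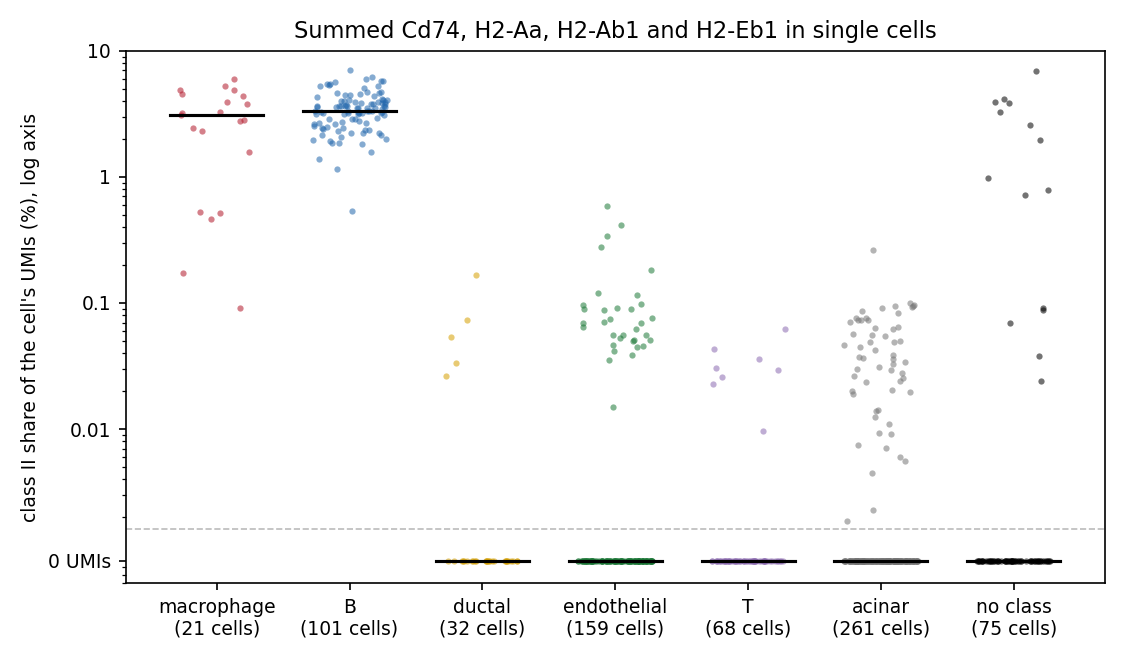
Each point is a cell, and the vertical axis, on a log scale with cells at 0 UMIs drawn on a separate line, gives the share of the cell's UMIs that came from the 4 class II genes, with a black line at the median of each class. Medians stand at 3.10% in macrophage-like and 3.35% in B-like cells and at 0 in the other classes, and 10 of the 75 cells in no class reach 0.723% to 6.95%.

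Macrophage-like and B-like cells had nearly the same summed level of the 4 genes. It was 31159.6 CPM (29638 to 32739) in macrophage-like and 32395 CPM (31609 to 33195) in B-like cells, a ratio of 0.962 (0.910 to 1.02). Per cell, the 4 genes took 0.0919% to 5.97% of UMIs in macrophage-like cells, with a median of 3.10%, and 0.539% to 7.05% in B-like cells, with a median of 3.35%. The ranges overlapped over most of their length. The spread was wider at the low end among the macrophage-like cells, where 5 of 21 cells stood under 1% of UMIs (0.0919% to 0.525%), against 1 of 101 B-like cells. These 5 macrophage-like cells held 24 Cd74 UMIs and 13 UMIs of the 3 chains. Their summed C1q level was 13585 CPM, against 14857 CPM in the other 16, and their Ctsb level 4087 CPM, against 2295 CPM. Among the 5 was the cell with the highest Ctsb share of all 21, 1.47% of its 1088 UMIs, which raised the Ctsb level of the 5. Lyz2, the macrophage lysozyme, stood at 3755 CPM in the 5 and 9953 CPM in the 16. Of the other macrophage marker genes, Csf1r stood at 994 and 1184 CPM, Adgre1 at 331 and 338 CPM and Mrc1 at 663 and 483 CPM. These 3 genes had 9, 3 and 6 UMIs in the 5 cells. In the 2 cells with the lowest share, 1 and 2 class II UMIs were seen among 1088 and 1162 UMIs, with 7 and 3 C1q UMIs.

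The invariant chain and the class II chains divided differently between the classes. Cd74 is a protein-coding gene on chromosome 18 (GRCm38, 60803848 to 60812652, plus strand), away from the chain genes. Cd74 stood at 14489.6 CPM (13458 to 15579) in macrophage-like and 20914 CPM (20284 to 21559) in B-like cells, a ratio of 0.693 (0.640 to 0.750). The chains ran the other way. H2-Aa stood at 5669 CPM (5031 to 6366) in macrophage-like and 4335 CPM (4051 to 4634) in B-like cells, a ratio of 1.31 (1.14 to 1.5). For H2-Ab1 the levels were 5035 CPM (4435 to 5693) and 3974 CPM (3702 to 4261), in the same order, with a ratio of 1.27 (1.10 to 1.46). H2-Eb1 differed the most of the 4, at 5966 CPM (5311 to 6680) in macrophage-like and 3171 CPM (2929 to 3428) in B-like cells, a ratio of 1.88 (1.63 to 2.16). None of the 4 reached a 2-fold difference, while 14.7% of the 496 genes with 50 or more UMIs over both classes were at least 2-fold higher and 19.6% at least 2-fold lower in macrophage-like cells. The median log2 ratio was 0.37 over the 4 genes and -0.23 over the 496.

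Set against the chains, Cd74 was therefore lower in macrophage-like cells. They held 0.869 Cd74 UMIs per chain UMI (0.786 to 0.961) and B-like cells 1.82 (1.73 to 1.92), so that the quotient of the ratios was 0.477 (0.427 to 0.533, Wald interval on the log scale). Single cells showed the same order. Among cells with 10 or more class II UMIs, the median was 0.789 in 19 macrophage-like and 1.92 in 100 B-like cells, and 10 of the 19 but 2 of the 100 held fewer Cd74 than chain UMIs. The groups overlapped, since macrophage-like cells ranged from 0.435 to 5.00 and B-like cells from 0.778 to 3.73, and 1 macrophage-like cell lay above the B-like median. Within the chains, H2-Eb1 per H2-Aa UMI was 1.05 (0.892 to 1.24) in macrophage-like and 0.731 (0.659 to 0.811) in B-like cells, while H2-Ab1 per H2-Aa UMI, which sets the partners of I-A against each other, was 0.888 (0.747 to 1.06) and 0.917 (0.831 to 1.01).

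**Figure D2:**
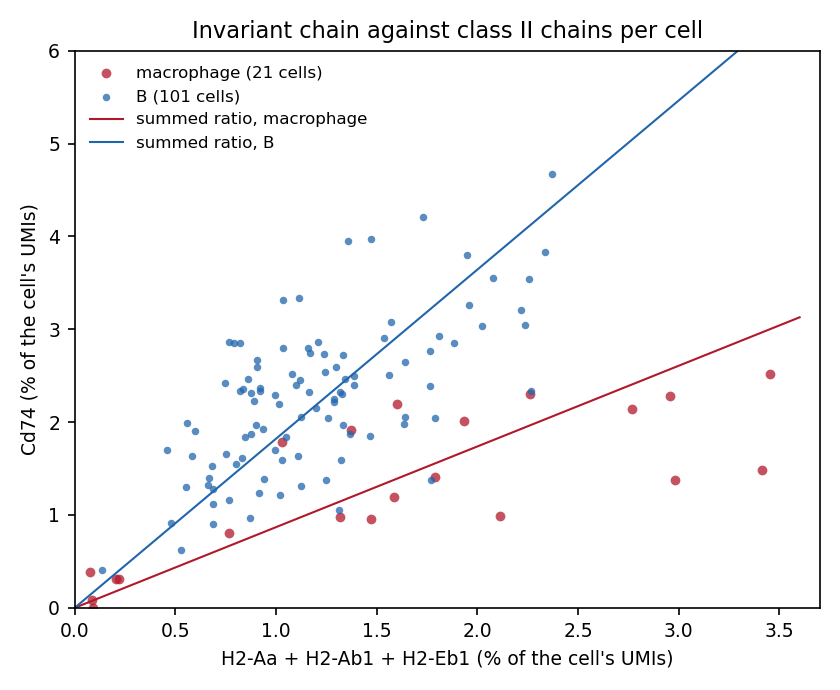
Each point is a cell, with the summed H2-Aa, H2-Ab1 and H2-Eb1 share of its UMIs on the horizontal axis and the Cd74 share on the vertical axis, and each line has the slope of its class's summed ratio. Most macrophage-like cells (slope 0.869) lie under the B-like cells (slope 1.82) at a given chain share.

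Cells with more chain transcripts also held more Cd74. As a description over cells of the same pooled sample, Pearson's r between the Cd74 and the chain share of UMIs was 0.78 over the 21 macrophage-like cells and 0.65 over the 101 B-like cells. Between H2-Aa and H2-Eb1 it was 0.85 and 0.40, and between H2-Aa and H2-Ab1 0.76 and 0.28. All these shares have the cell's depth in common. UMIs of all 4 genes were seen in 17 of 21 macrophage-like and 99 of 101 B-like cells.

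Among the B-like cells, the 73 with an Ighd UMI, a mark of mature naive B cells, held 34415 CPM (33422 to 35429), and the 28 without held 28409 CPM (27147 to 29714), a ratio of 1.21 (1.15 to 1.28), although the median cells held 3.35% and 3.41% of their UMIs. The 2 B-like cells with 3 or more UMIs of Jchain, the joining chain made by antibody-secreting cells, held 22264 CPM, against 33254 CPM in the other 99. Their Cd74 count per chain UMI was 0.960, against 1.89.

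Of the accessory chains, H2-DMb2, H2-Oa and H2-Ob were seen in B-like cells and had 0 UMIs in macrophage-like cells. H2-DMa, the alpha chain of the peptide exchanger H2-DM, stood at 654 CPM (450 to 919) in macrophage-like and 607 CPM (504 to 725) in B-like cells, a ratio of 1.08 (0.710 to 1.59). H2-DM has a choice of beta chains in the mouse, and their use differed. H2-DMb1 had 16 UMIs in 9 macrophage-like cells (317 CPM, 181 to 515) and 26 in 22 B-like cells (130 CPM, 85.2 to 191). H2-DMb2 had 0 UMIs in macrophage-like cells, which allows up to 59.5 CPM at a limit of 3 counts, and 204 UMIs in 82 of 101 B-like cells (1024 CPM, 888 to 1174). Against this limit it was at least 17.2-fold lower in macrophage-like cells, while the exact interval of the ratio reached up to 0.0721. H2-DMb2 thus made up 0 of 16 beta chain UMIs (0 to 20.6%) in macrophage-like and 88.7% of 230 (83.9 to 92.5) in B-like cells. The 2 beta chain genes are close copies, and counts could be split between them.

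Both chains of H2-O, the inhibitor of H2-DM, followed the pattern of H2-DMb2. H2-Oa had 0 UMIs in macrophage-like and 102 in B-like cells (512 CPM), at least 8.61-fold lower in macrophage-like cells, and H2-Ob had 0 and 69 (346 CPM), at least 5.82-fold lower. These folds are against the limit of 3 counts, and the exact intervals of the ratios reached up to 0.145 and 0.217. Of the 6 accessory chain genes measured, 4 had 50 or more UMIs over both classes. Of these, 0 were higher and 3 lower in macrophage-like cells, where 14.7% of all genes compared were higher and 19.6% lower. The 3 lower genes passed this minimum through B-like UMIs alone. H2-DMb1, at a ratio of macrophage-like to B-like cells of 2.43 (1.22 to 4.71), fell below it. The count is therefore not read as a result about the list. H2-Eb2, a further beta chain gene, had 0 and 12 UMIs.

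Of 9 genes of antigen processing, 3 had 50 or more UMIs over macrophage-like and B-like cells, and these 3, Ctss, Lgmn and Ctsb, were higher in macrophage-like cells, where 14.7% of all genes compared were higher and 19.6% lower. The other 6 were below the minimum, among them Ctsd (29 and 2 UMIs) and Ifi30 (4 and 35 UMIs), which ran in opposite directions. Ctsb, with 132 and 7 UMIs, passed it through macrophage-like cells alone, and Lgmn, with 42 and 12, mostly through them. The count is therefore not read as a result about the list. Ctss, the cathepsin S that trims the invariant chain in antigen-presenting cells, stood at 1566 CPM in macrophage-like and 341 CPM in B-like cells (ratio 4.59, 3.28 to 6.44). Lgmn, the asparagine endopeptidase legumain, stood at 833 and 60.2 CPM (ratio 13.8, 7.15 to 28.8), and Ctsb, cathepsin B, at 2616 and 35.1 CPM (ratio 74.5, 35.2 to 189). Ctsl, cathepsin L, which trims the invariant chain in thymic epithelium, had 5 UMIs in macrophage-like and 0 in B-like cells. Ifi30, a thiol reductase that opens disulfide bonds of antigens, had 4 UMIs (79.3 CPM, 21.6 to 203) and 35 UMIs (176 CPM, 122 to 244).

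Ciita, the class II coactivator, had 1 UMI in macrophage-like and 26 in B-like cells, or 19.8 CPM (0.502 to 110) and 130 CPM (85.2 to 191), and 0 in the other 4 classes. A count of 0 allows up to 24.0 CPM in ductal-like, 8.02 CPM in endothelial-like, 16.7 CPM in T-like and 2.72 CPM in acinar-like cells. None of the 8 class II regulators, which also include the RFX subunits Rfx5, Rfxap and Rfxank and the NF-Y subunits, had 50 UMIs over any pair of classes compared. Of the co-stimulation genes, Cd83, which stabilizes class II at the surface, alone had 50 UMIs over macrophage-like and B-like cells, and stood at 79.3 CPM (21.6 to 203) in macrophage-like and 346 CPM (269 to 438) in B-like cells (ratio 0.229, 0.0607 to 0.613). Cd86 and Icosl, ligands of T cell co-receptors, had 2 and 0 UMIs in macrophage-like cells and 14 and 17 in B-like cells. Mif, a cytokine that binds Cd74 at the cell surface, was seen in every class, at 178 CPM (81.6 to 339) in macrophage-like, 276 CPM (208 to 359) in B-like, 464 CPM (352 to 600) in ductal-like, 158 CPM (120 to 203) in endothelial-like, 440 CPM (348 to 548) in T-like and 113 CPM (93.6 to 134) in acinar-like cells.

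**Figure D3:**
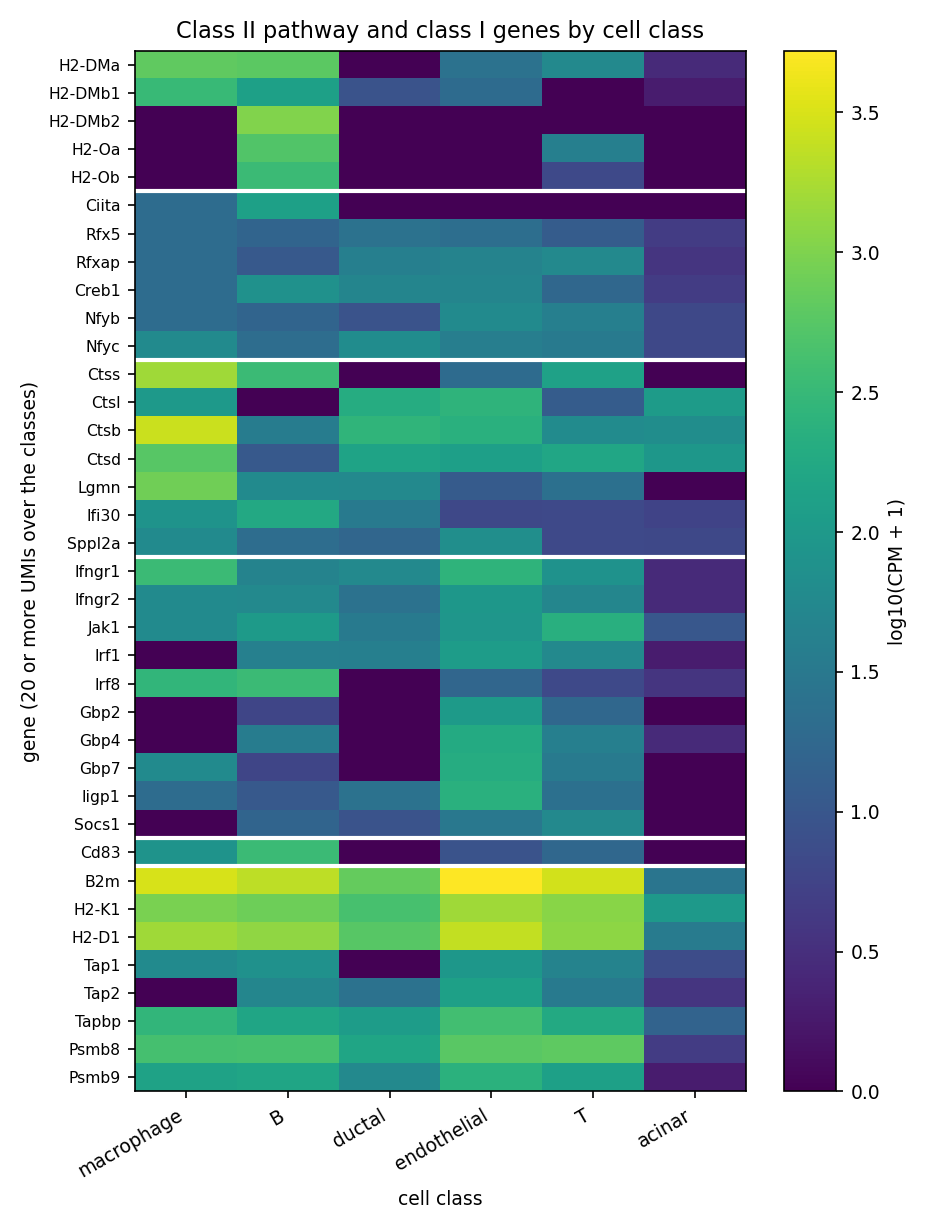
Colour gives log10(CPM + 1) for 37 genes of the lists with 20 or more UMIs over the 6 classes, with white lines between accessory chains, regulators, processing genes, interferon gamma response, co-stimulation and MHC class I. H2-DMb2 stands out in the B-like column alone, with 204 UMIs against 0 in each other class, Ctsb in the macrophage-like column, and Gbp2, Gbp4, Gbp7 and Iigp1 in the endothelial-like column.

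The 68 T-like cells held 8 class II UMIs, 5 of Cd74 and 1 of each chain gene, in 8 cells (11.8%, 5.22 to 21.9), and no cell held more than 1. The B-like level of 32395 CPM compared with 44.6 CPM (19.2 to 87.8) in T-like cells, a ratio of 727 (369 to 1685). All 4 genes were at least 2-fold higher in B-like cells, where 9.61% of 687 genes were and 7.13% were at least 2-fold lower, and the median log2 ratio was 8.96 over the 4 genes and -0.06 over all 687. The 4 genes passed the minimum of 50 UMIs through B-like UMIs alone, so this count is not read as a result about them. By gene, the ratio of B-like to T-like cells was 751 (322 to 2314) for Cd74, 778 (139 to 30783) for H2-Aa, 714 (128 to 28221) for H2-Ab1 and 569 (102 to 22527) for H2-Eb1. With every cell that meets a rule, the summed ratio was 262, with a cell that also met the endothelial rule in the T-like set.

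The share of T-like cells with a UMI lay under that of acinar-like cells, so it is not read as expression. The source of these UMIs was not tested. The T-like level was 0.663 times the acinar-like level (0.276 to 1.38), or 1.46 times with every cell that meets a rule. Of the 4 genes only Cd74 had 50 UMIs over T-like and acinar-like cells, and it did not reach 2-fold in either direction (ratio 0.682, 0.211 to 1.71), where 60.1% of 930 genes were at least 2-fold higher in T-like cells. The accessory chains were not uniformly as low. T-like cells held 10 H2-DMa UMIs in 7 cells (55.7 CPM, 26.7 to 102) and 7 H2-Oa UMIs in 5 cells (39.0 CPM, 15.7 to 80.3), so that the ratio of B-like to T-like cells was 10.9 (5.73 to 23.3) for H2-DMa and 13.1 (6.15 to 33.5) for H2-Oa. H2-DMb2 had 204 UMIs in B-like and 0 in T-like cells, at least 61.3-fold higher in B-like cells against the limit of 3 counts. The exact interval of this ratio began at 49.4.

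**Figure D4:**
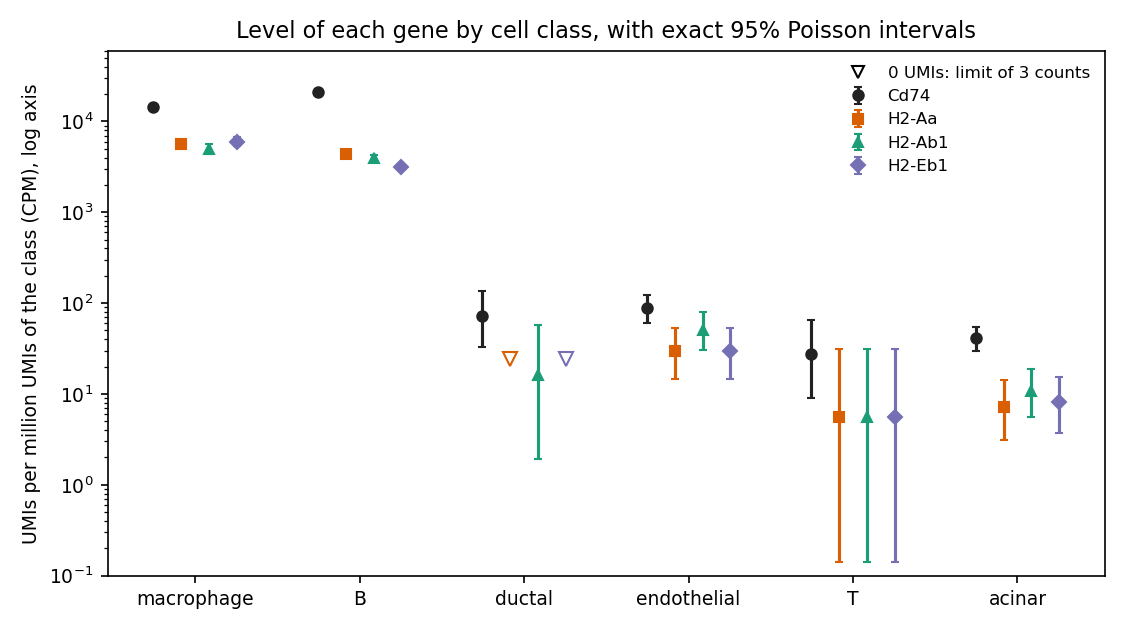
Points give the level of each gene in each class as CPM on a log axis, bars the exact 95% Poisson interval, and open triangles the limit of 3 counts where a class held 0 UMIs. The macrophage-like and B-like levels lie between 3171 and 20914 CPM and all other levels at or below 88.2 CPM.

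Endothelial-like cells held a low level that stood above those of T-like and acinar-like cells. Their 159 cells held 74 class II UMIs, comprising 33 of Cd74, 11 of H2-Aa, 19 of H2-Ab1 and 11 of H2-Eb1, or 198 CPM (155 to 248). This was 4.44 times the T-like level (2.14 to 10.7) and 2.94 times the acinar-like level of 67.2 CPM (2.10 to 4.12), and the B-like level was 164 times higher (130 to 209). All 4 genes were at least 2-fold higher in B-like than in endothelial-like cells, where 12.8% of 1630 genes were, with ratios from 78.3 for H2-Ab1 to 237 for Cd74. Here too the 4 genes passed the minimum through B-like UMIs alone, and the count is not read as a result about them. Between endothelial-like and acinar-like cells, only Cd74 had 50 or more UMIs, and its ratio of 2.16 (1.33 to 3.46) passed the 2-fold rule. That rule was passed by 80.3% of the 1845 genes compared, while 7.37% were at least 2-fold lower, and the median log2 ratio was 1.12 for Cd74 and 2.70 over all genes. The 4 acinar rule genes alone took 30.8% of the acinar-like UMIs and 0.667% to 0.904% of those of the other classes. Once acinar marker genes were removed from every total, the summed ratio was 1.39. Against T-like cells, where the median log2 ratio of 1565 genes was 0.77, none of the 4 genes had 50 UMIs over both classes, and the summed ratio was 2.20 with every cell that meets a rule.

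The share of endothelial-like cells with a class II UMI was 34 of 159 (21.4%, 15.3 to 28.6) at a median depth of 1879 UMIs. It did not exceed the 22.2% of acinar-like cells and by itself is not read as expression. At 1000 UMIs per cell the shares were 13.9% and 9.48%. The number of UMIs per cell differed more. At least 5 UMIs were seen in 5 endothelial-like and 0 of 261 acinar-like cells, and UMIs of at least 2 of the 4 genes in 13 endothelial-like and 7 acinar-like cells. The 5 cells held 9, 7, 5, 5 and 5 class II UMIs. Each of them held UMIs of Cd74, H2-Ab1 and H2-Eb1, and each held between 9 and 19 UMIs of the endothelial rule genes. None held a UMI of the B or macrophage rule genes, of Igkc, of Ptprc (CD45), or of the 6 macrophage and 7 B marker genes. Without these 5 cells, chosen after their values were seen, the ratio to acinar-like cells was 1.75, under the 2-fold rule, and the ratio to T-like cells 2.65.

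**Figure D5:**
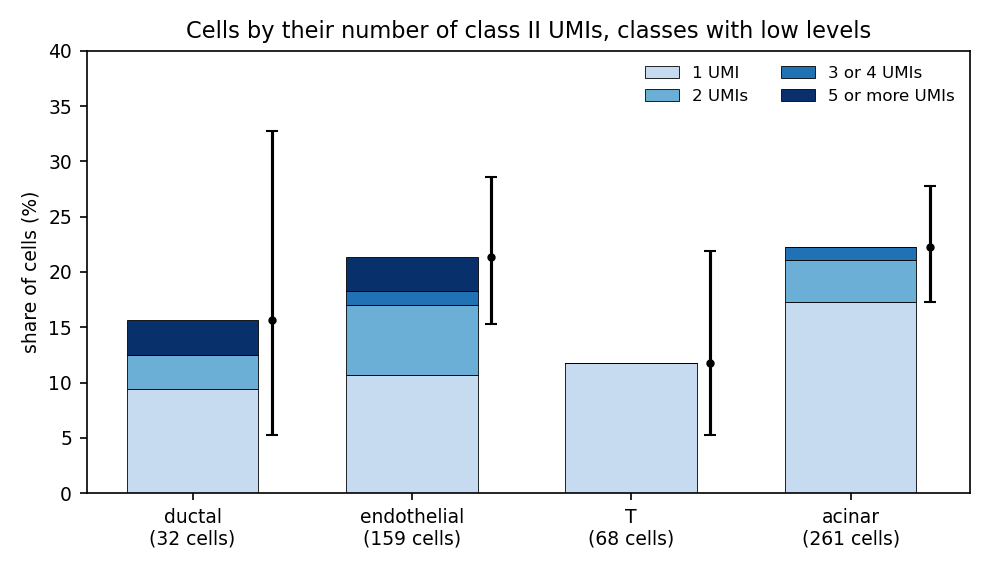
Stacked bars give the share of cells in each of 4 classes by their number of class II UMIs, and the point beside each bar the share with at least 1 UMI with its exact 95% interval. The intervals of the 4 classes overlap, while cells with 5 or more UMIs make up 5 of 159 endothelial-like and 1 of 32 ductal-like cells and 0 of the T-like and acinar-like cells.

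Class II UMIs were also set beside UMIs of B and macrophage markers. In B-like and macrophage-like cells together there were 2.30 class II UMIs (2.21 to 2.40) per UMI of the B rule genes, Igkc and the macrophage rule genes. The 10 cells in no class, picked for their class II UMIs, held 1408 class II UMIs and 7 such marker UMIs, and with them the value was 2.70 (2.60 to 2.81). Acinar-like cells held 74 class II UMIs and 24 such marker UMIs, a ratio of 3.08 (1.92 to 5.11), and T-like cells 8 and 6, a ratio of 1.33 (0.406 to 4.66). Endothelial-like cells held 74 and 5, a ratio of 14.8 (6.06 to 46.9), and 73 of their 74 class II UMIs lay in the 155 cells without any marker UMI. The class rules cap the B and C1q genes in the other classes, but not Igkc, of which endothelial-like cells held 1 UMI and acinar-like cells 11. Ductal-like cells held 11 class II and 2 marker UMIs, a ratio of 5.50 (1.20 to 51.1). The part of free RNA in the low levels was not tested.

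Among endothelial-like cells, class II was higher where capillary genes were low. The 43 cells with under 5 UMIs of Car4, Gpihbp1 and Rgcc held 31 class II UMIs, 374 CPM (254 to 532), and the 116 cells with 5 or more held 43, 148 CPM (107 to 199), a ratio of 2.54 (1.55 to 4.12). The shares of cells with a UMI were 34.9% (21.0 to 50.9) and 16.4% (10.2 to 24.4), at median depths of 1673 and 1988 UMIs, and their intervals overlapped. The 104 cells without a UMI of the arterial genes Gja4, Gja5, Sox17 and Bmx held 232 CPM and the 55 with 1 held 138 CPM, a ratio of 1.68 whose interval (0.981 to 3.0) includes 1. The 17 cells with a UMI of the venous genes held 226 CPM (108 to 416) and the other 142 held 194 CPM (149 to 248).

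Of the 15 genes of the interferon gamma response, 5 had 50 or more UMIs over endothelial-like and acinar-like cells, and these 5 were at least 2-fold higher in endothelial-like cells, where 80.3% of all genes compared were. Against T-like cells, whose totals hold few enzyme transcripts, 7 genes passed the minimum, of which 4 were higher and 1 lower, where 44.3% of all genes were higher and 13.4% lower, so neither count is read as a result about the list. The interferon-induced GTPase Iigp1 stood at 233 CPM in endothelial-like and 22.3 CPM in T-like cells (ratio 10.4, 3.93 to 39.2). The guanylate-binding proteins Gbp7 (ratio 6.00, 2.63 to 16.9) and Gbp4 (4.87, 2.24 to 12.5) and the receptor chain Ifngr1 (3.36, 1.91 to 6.37) were also higher, and the kinase Jak1 was lower (0.396, 0.242 to 0.644). Ctsl, the cathepsin of the thymic epithelium, stood at 262 CPM in endothelial-like and 11.1 CPM in T-like cells (ratio 23.5, 6.34 to 197), while H2-DMa had 9 and 10 UMIs.

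The MHC class I gene B2m followed another order of classes than the class II genes. B2m, the light chain of class I, stood at 5255 CPM in endothelial-like, 3171 CPM in macrophage-like, 2907 CPM in T-like, 2243 CPM in B-like, 704 CPM in ductal-like and 27.2 CPM in acinar-like cells. B-like cells (2040 to 2461 CPM) thus held less B2m than T-like cells (2663 to 3167 CPM). The ratio of B-like to T-like cells was 0.772 (0.678 to 0.877) for B2m and, in the same direction, 0.696 (0.563 to 0.860) for H2-K1. For H2-D1 it was 1.03 (0.854 to 1.24), an interval that includes 1. Like B2m, H2-K1 and H2-D1 stood highest in endothelial-like cells (1564 and 2416 CPM) and lowest in acinar-like cells (103 and 34.5 CPM). Of the 7 class I genes with 50 UMIs over endothelial-like and acinar-like cells, 7 were at least 2-fold higher in endothelial-like cells, where 80.3% of all genes were. Most of these 7 reached the minimum through endothelial-like UMIs alone. Over endothelial-like and T-like cells 2 of 7 were at least 2-fold higher in endothelial-like cells, where 44.3% of all genes were. Neither count is read as a result about the list.

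Ductal-like cells held 11 class II UMIs in 5 of 32 cells (15.6%, 5.28 to 32.8; median depth 3295 UMIs), or 88.0 CPM (43.9 to 157). Of these, 9 were Cd74 and 2 H2-Ab1. H2-Aa and H2-Eb1 had 0 UMIs, which allows up to 24.0 CPM for each and up to 9.38% of cells with a UMI. The level was 1.31 times the acinar-like level (0.627 to 2.48), a difference that was not detectable at this depth, and 0.445 times the endothelial-like level (0.213 to 0.843). A single cell held 6 of the 11 UMIs, all of them Cd74. Without it the ratios were 0.613 and 0.208. Only Cd74 had 50 UMIs over ductal-like and acinar-like cells, and its ratio of 1.76 (0.757 to 3.65) did not reach 2-fold, where 72% of 956 genes were at least 2-fold higher in ductal-like cells. The share lay under that of acinar-like cells and is not read as expression, and the source of these UMIs was not tested.

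Acinar-like cells held 74 class II UMIs in 58 of 261 cells, and 45 of these cells held 1. The level was 67.2 CPM (52.7 to 84.3), so macrophage-like cells stood 464 times higher (367 to 594) and B-like cells 482 times higher (384 to 615). Once acinar marker genes were removed from every total, these values were 219 and 227. All 4 genes were at least 2-fold higher in macrophage-like and in B-like cells, where 58.4% and 60.6% of genes were. They passed the minimum through macrophage-like or B-like UMIs alone, so these counts are not read as results about the 4 genes. The acinar-like level differed between barcode endings, at 155 CPM (93.2 to 242) in the 45 cells of ending 2 and 56.2 CPM (42.3 to 73.1) in the 216 of ending 1, a ratio of 2.75 (1.54 to 4.71). Their median depths also differed, at 1644 and 2276.5 UMIs, and the part of depth in this ratio was not tested. The 45 cells held 4 of the 24 B and macrophage marker UMIs. No label says what the endings stand for.

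In order of level the classes ran B-like, macrophage-like, endothelial-like, ductal-like, acinar-like and T-like, though the places of the last 3 changed with single cells and with the rule for cells that meet several rules. As reported, the neighbours B-like and macrophage-like, ductal-like and acinar-like, and acinar-like and T-like did not differ beyond counting error. Macrophage-like over B-like cells moved outside its interval in both directions. It was 0.840 with each cell thinned to 1000 UMIs and 1.06 without cells that held a UMI of another class's rule genes. With acinar marker genes removed from every total, ductal-like over acinar-like cells was 0.616 and T-like over acinar-like cells 0.311. Among 3054 other genes with 50 or more UMIs, the 10 whose pattern over the 6 classes was most like the summed level (Pearson's r of log2(CPM + 10)) were Irf8 (0.987), H2-DMb1 (0.973), Unc93b1 (0.935), Zc3h15 (0.934), Ppp3r1 (0.926), Snx2 (0.921), Bank1 (0.914), H2-DMa (0.912), Cd83 (0.900) and Ifi30 (0.897). These values rest on 6 classes of the same library pool, 2 of which are far above the others. Irf8, a transcription factor of myeloid and B cells, stood at 278 CPM in macrophage-like, 346 CPM in B-like, 16 CPM in endothelial-like, 5.57 CPM in T-like and 2.72 CPM in acinar-like cells, and had 0 UMIs in ductal-like cells. H2-DMb1 had 7 UMIs in 7 endothelial-like cells (18.7 CPM, 7.52 to 38.5), 1 in ductal-like and acinar-like cells each, and 0 in T-like cells.

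Cells that met no rule held 1414 class II UMIs, and 1408 of them (99.6%) lay in 10 cells with 10 or more, a minimum chosen after the values were seen. The other 65 cells held 6. In the 10 cells the 4 genes took 0.723% to 6.95% of UMIs, within the range of the B-like cells. Their Cd74 count per chain UMI was 1.30 (1.17 to 1.44), between the macrophage-like and the B-like value, and in single cells it ran from 0.630 to 4.25. They held 0 C1q UMIs and 2 UMIs of the B rule genes. Dendritic cell markers were seen in 7 of the 10, in different combinations and beside markers of other cells. The cell with the most, 414 class II UMIs, held 12 UMIs of the macrophage marker genes, 4 of the B marker genes and 1 of the dendritic genes. The cell with 262 class II UMIs held 2 UMIs each of Xcr1 and Clec9a, markers of cross-presenting dendritic cells, 94 of Cst3, 10 of the NK cell genes and 8 of the macrophage marker genes. The cell with 247 held 12 UMIs of Ccr7 and 19 of Fscn1, genes of migratory dendritic cells. The cell with 185 held 3 UMIs of Flt3, the receptor of dendritic cell growth factor, and 6 of H2-DMb2. Another, with 40, held 9 UMIs of Siglech and 8 of Ccr9, genes of plasmacytoid dendritic cells, 17 of Irf8 and 11 of the B marker genes, and its 32 Cd74 UMIs stood against 8 of the chains. The cell with 14 class II UMIs held 124 UMIs of the neutrophil genes and 10 of the B marker genes. Single cells are described here, and no cell type is assigned to the 10.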

How the data were processed

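The deposited table holds raw UMI counts per gene and cell, per the labels' description of 10x Genomics libraries and the whole-number values. Cell Ranger and the mm10 build are named in the submitters' processing notes; versions and the cell filter are not stated in them. The 14793 rows hold 4 symbols on 2 rows each, which were summed. Cells could not be tied to the 2 samples, so no test was made and the 2353008 UMIs were treated as a single pooled sample.

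Class sums of UMIs were scaled to CPM with Python 3.11.15, pandas 2.3.3, numpy 2.4.6 and scipy 1.17.1. Ratios have exact conditional binomial intervals. Comparisons over all genes used genes with 50 or more UMIs over both classes, with 0.5 counts added to each sum, and called a 2-fold difference. These steps were tested on simulated data. A level of 0 is given a limit of 3 counts of the class total, and "at least" marks a fold against that limit. The exact interval of such a ratio reaches nearer to 1 than this limit. Thinned shares are the expected share of cells with a UMI after drawing 1000 UMIs from each cell, which left out 0 cells. No doublet caller was run, and cells that met several rules were left out of the classes. Animal-to-animal variation is not covered. The 4 genes, the class rules and the gene lists were chosen with earlier results of these data known, and splits within a class were described without a test. Pathway genes with 20 or more UMIs over the classes could be named, and the 10 genes most like the 4 were ranked over the 6 classes, leaving out class rule genes. Some items are not reported here.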

Additional observations from a re-analysis of the deposited data

How the results depend on the processing

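The 10 ratios and 6 shares were recomputed under 9 planned settings and 2 chosen after seeing the data, which gave 127 values. None turned a 2-fold difference round, and 104 lay within the counting interval of the reported value. Macrophage-like over B-like cells moved to 0.884 without the 5% deepest cells of each class, 0.840 with each cell thinned to 1000 UMIs and 1.06 without cells that held a UMI of another class's rule genes. With every cell that meets a rule, B-like cells stood 262 times over T-like, 119 times over endothelial-like and 383 times over acinar-like cells, macrophage-like over acinar-like cells 364 times, and T-like over acinar-like cells 1.46 times. Once acinar marker genes were removed from every total, the ratios to acinar-like cells were 219 for macrophage-like, 227 for B-like, 1.39 for endothelial-like and 0.616 for ductal-like cells, by construction of that total. Thinning gave 281 for macrophage-like and 334 for B-like over acinar-like cells, and leaving out the deepest cells 355 for macrophage-like over acinar-like cells. Without the 5 endothelial-like cells highest in class II, B-like over endothelial-like cells was 275 and endothelial-like over acinar-like cells 1.75, and without the highest ductal-like cell, ductal-like cells stood at 0.613 of acinar-like and 0.208 of endothelial-like cells. Thinning brought the share of cells with a UMI to 3.82% in T-like, 13.9% in endothelial-like and 9.48% in acinar-like cells, and ending 2 alone gave 33.3% of acinar-like cells. Apart from the totals, the thinning and the cells left out, the cause was not tested. Ending 2 held at least 5 cells of T-like and acinar-like cells only, so the other classes have no value there. No paired analysis was possible because the cells carry no replicate label. Depth limits the low classes, where 1 UMI stands for 8.0 CPM in ductal-like and 5.57 CPM in T-like cells.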
